A study of Mus musculus with 8 samples.

Results

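The interferon response genes described here are 40 mouse genes chosen by name: the receptor subunits for type I interferon and for interferon gamma, the transcription factors that act below them, and genes that interferons induce. Their members are all the probe sets that the array annotation assigns to exactly 1 gene symbol on that list. They came to 60 of the 34945 probe sets with 1 gene and covered 38 of the 18193 genes so measured. Isg15 and Ifi44 had no probe set assigned to them alone and are not analysed here. Of the 38 genes, 23 had a single probe set and 15 had several, up to 4. By role there were 11 receptors and factors and 29 listed induced genes.

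The levels were measured in lymphatic endothelial cells (LEC), which line the vessels that drain tissue fluid, and in blood vascular endothelial cells (BEC), which line the blood vessels. Both were sorted by flow cytometry from the colons of 4 healthy, untreated C57BL/6J mice aged 8 weeks, mice 1 to 3 female and mouse 4 male. Each mouse gave 1 LEC and 1 BEC sample, so there were 4 LEC and 4 BEC arrays, and the submitters kept these pairs for the quality of their RNA and cDNA. Antibodies to CD31, CD45.2 and podoplanin were used for the sort, with the gates themselves not given in the sources used here. The RNA was amplified linearly from poly(A) and random primers before it was hybridised, and the deposited values are log2 signals.

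Type I interferons bind a receptor made of Ifnar1 and Ifnar2. Jak kinases on the receptor then activate a complex that holds Stat2 and Irf9 and binds the interferon-stimulated response element (ISRE) in the promoters of antiviral genes. Interferon gamma binds Ifngr1 and Ifngr2 and acts through the gamma-activated site (GAS), with Irf1 among its early targets. Endothelial cells carry both receptors. The induced proteins bind or cut viral RNA, block virus assembly and release, attach ISG15 to other proteins, or attack the vacuoles of intracellular microbes.

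The promoters of 31 of the 40 genes could be matched in RefSeq (build GRCm38.p6), each as a window of 300 bases from 250 before to 50 after the start site, 38 windows in all. They are shown because the ISRE and GAS words are the sequence feature through which the induced genes are known to respond. A window was searched on both strands for the core ISRE word GAAANNGAAA and for the GAS word TTCNNNGAA. The ISRE word stood in 14 of the 38 windows (36.8%), against 1131 of all 32851 windows (3.44%), and it was in 12 of 20 matched induced genes, 2 of 7 factors and 0 of 4 receptors. The GAS word stood in 11 of the 38 windows (28.9%), against 2726 of all windows (8.3%). A window with both words occurred 4 times among the 38 and 149 times among all. In the lines below, from the strand of the gene, capitals mark the ISRE word in Rsad2 (chr12:26456403-26456702, minus strand), Ifit3 (chr19:34583279-34583578, plus strand), Ifit1 (chr19:34640639-34640938, plus strand) and Irgm1 (chr11:48871371-48871670, minus strand). In Irf1 (chr11:53769764-53770063, plus strand), one of its 2 windows, they mark the GAS word. None of these 5 windows held both words.

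Rsad2: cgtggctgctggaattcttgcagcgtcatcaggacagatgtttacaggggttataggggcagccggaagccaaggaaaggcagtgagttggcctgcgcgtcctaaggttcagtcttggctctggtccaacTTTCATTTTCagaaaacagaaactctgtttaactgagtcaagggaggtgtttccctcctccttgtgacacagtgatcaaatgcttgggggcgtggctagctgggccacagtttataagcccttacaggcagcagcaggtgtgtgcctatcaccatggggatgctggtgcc

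Ifit3: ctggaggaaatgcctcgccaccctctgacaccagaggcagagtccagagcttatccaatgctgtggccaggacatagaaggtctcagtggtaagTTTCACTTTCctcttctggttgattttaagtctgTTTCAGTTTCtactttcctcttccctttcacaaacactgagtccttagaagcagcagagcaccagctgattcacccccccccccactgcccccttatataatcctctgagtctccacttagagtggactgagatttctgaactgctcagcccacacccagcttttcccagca

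Ifit1: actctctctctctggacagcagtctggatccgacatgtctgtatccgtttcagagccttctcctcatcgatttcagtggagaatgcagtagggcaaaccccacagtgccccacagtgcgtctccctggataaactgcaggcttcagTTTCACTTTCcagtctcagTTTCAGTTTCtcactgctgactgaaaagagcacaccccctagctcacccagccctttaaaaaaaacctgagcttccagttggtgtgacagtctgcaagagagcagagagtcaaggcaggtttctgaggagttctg

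Irgm1: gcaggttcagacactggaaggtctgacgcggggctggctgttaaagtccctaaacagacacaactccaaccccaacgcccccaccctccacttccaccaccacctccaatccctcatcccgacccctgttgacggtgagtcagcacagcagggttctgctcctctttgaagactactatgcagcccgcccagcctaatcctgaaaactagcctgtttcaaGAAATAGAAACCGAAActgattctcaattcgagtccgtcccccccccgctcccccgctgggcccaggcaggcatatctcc

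Irf1: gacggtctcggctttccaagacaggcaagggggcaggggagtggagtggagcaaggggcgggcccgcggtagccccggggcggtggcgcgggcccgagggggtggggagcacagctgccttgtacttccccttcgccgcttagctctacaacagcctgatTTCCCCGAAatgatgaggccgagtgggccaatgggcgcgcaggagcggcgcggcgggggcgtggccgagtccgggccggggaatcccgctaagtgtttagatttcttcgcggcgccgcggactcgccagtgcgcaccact

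The word in Rsad2 began 120 bases before the start site. Ifit3 held it at 156 and 122 bases before, and Ifit1 at 104 and 85 bases before, in both genes as the same pair of reverse-strand words. In Irgm1 the words began 30 and 24 bases before the start site and overlapped, and the GAS word of Irf1 began 90 bases before it. A match is a run of letters and says nothing of binding in these cells. Of the genes that differed between the cell types in the results that follow, Rsad2 and Ifit3 had the ISRE word, Irf1 and Ifit2 the GAS word, and Oasl2 and Trim25 neither, while 10 of the 22 matched genes that were tested and not called had the ISRE word. Iigp1 was not matched.

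The cell labels were set beside marker genes, from lists chosen with earlier results of these data known. Among the markers, Pdpn, Pecam1 and Ptprc encode podoplanin, CD31 and CD45, which the sort used, so they are no independent check. All 7 measured lymphatic markers were called higher in LEC. All 8 blood vascular markers had differences below 0 and 7 were called lower in LEC, Emcn (-0.72, adjusted p = 0.305 in limma) not being called. All 8 general endothelial markers were above background on every array, with Cdh5 and Esam called lower in LEC (limma, adjusted p = 0.0252 and 0.000237). The 8 general endothelial markers all had differences below 0, with a median of -0.94. The background, set on control probe sets for bacterial transcripts, was 3.83 to 4.88 on the LEC arrays and 3.43 to 4.52 on the BEC arrays. LEC of mouse 1 stood apart from the other arrays, with a median Spearman correlation of 0.603 to its own group, against 0.731 to 0.816 on the other 7. The Gapdh control probe sets read higher at the 3′ than at the 5′ end by 1.14 to 3.87 log2 units in LEC and 2.68 to 3.62 in BEC. Of 29 leukocyte markers, 10 to 14 were above background in LEC and 10 to 15 in BEC, their summed level was 9.23 to 10.83 in LEC and 9.25 to 10.11 in BEC on the log2 scale, and C1qa and Nkg7 were above it on no array. Of 16 leukocyte markers tested, Cd2 was called higher and Lcp1 lower in LEC, with 5 of the 16 differences below 0 and a median of 0.24. In all 4 mice 4 of them were higher and 1 lower in LEC. The 18 epithelial markers summed to 8.87 to 13.82 in LEC and 9.62 to 14.75 in BEC, and 0 of 17 tested were called by limma (0 higher and 1 lower at an unadjusted p under 0.05), with 15 of the 17 differences below 0 and a median of -1.13. The 10 fibroblast markers summed to 8.86 to 13.24 in LEC and 8.00 to 8.69 in BEC, with Fbln1 called higher and a median difference of 3.16. The part of these cells in the results was not tested.

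Every difference that passed the test among the interferon response genes was lower in LEC than in BEC. Of the 36 genes above the filter on dim probe sets, 7 were lower in LEC (19.4%), namely Rsad2, Irf1, Oasl2, Trim25, Iigp1, Ifit2 and Ifit3, and the changes ran from 2.37-fold in Trim25 to 14.8-fold in Rsad2. Over all 13259 genes tested, 2.31% were called lower and 1.76% higher in LEC at an adjusted p under 0.05 (limma, Benjamini-Hochberg over all genes). No interferon response gene was called higher, and none had an unadjusted p under 0.05 in that direction, while 13 had one for lower. Of all genes, 6.98% had such a p for higher and 7.42% for lower. The fitted difference was below 0 in 26 of the 36 (72.2%), against 46.8% of all genes, and the median difference was -0.78, against 0.08 over all genes. The epithelial and general endothelial markers had lower medians still, -1.13 and -0.94, with 88.2% and 100% of their differences below 0, and their part in these counts was not tested. The interferon response genes were chosen with earlier results of these data known. Their shares and medians thus describe the list and are not independent evidence of a shift in it. All log2 differences are LEC minus BEC. In a bulk sample, fewer cells that express a gene and less RNA of it per cell cannot be told apart.

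The count of 7 depended on the arrays and the fit. With the mouse as a replicate block, which the paired design allows, it was 3 (2.25% of all genes lower), and the genes left were Rsad2, Irf1 and Iigp1. Leaving out LEC of mouse 1, 2 or 3 gave 6 (2.48%, 2.07% and 2.31% of all genes lower). It was 2 without LEC of mouse 4, 4 without BEC of mouse 1, 2 without BEC of mouse 2, 2 without BEC of mouse 3 and 3 without BEC of mouse 4. In the same fits the share of all genes called lower was 1.99%, 1.56%, 1.36%, 1.64% and 1.51%, against 5.56%, 11.1%, 5.56%, 5.56% and 8.33% of the interferon response genes. With no filter on dim probe sets 7 of all 38 measured genes were called lower, against 1.54% of all genes.

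**Figure D1:**
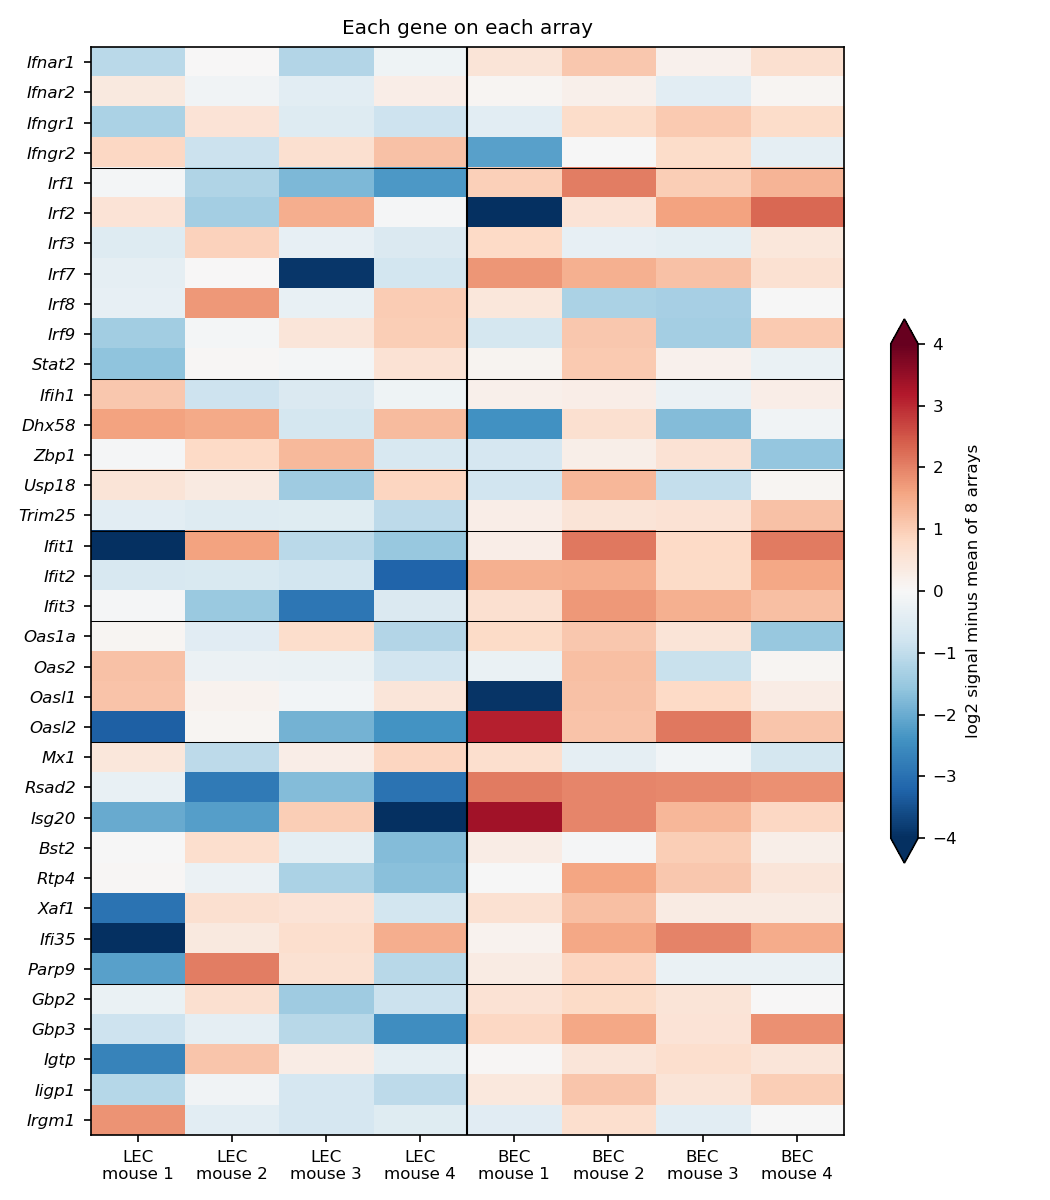
Log2 signal of the 36 tested interferon response genes (lines, ordered by role) on the 8 arrays (columns, LEC left and BEC right), each gene minus its mean over the 8 arrays, in log2 units and with the colour scale ending at 4 on either side. Blue lies mostly on the LEC side among the induced genes, and the lowest of a gene's 8 arrays was a LEC array in 27 of the 36 genes. The same count over all genes tested is not given here.

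The map of single arrays shows that no one array carries all the low values. The lowest of the 8 arrays was LEC of mouse 1 in 10 genes, of mouse 4 in 9, of mouse 3 in 6 and of mouse 2 in 2, and a BEC array in the other 9. The highest was a BEC array in 25 of the 36 genes, among them BEC of mouse 2 in 14. The same counts over all genes tested are not given here. A trait of these genes and a trait of the arrays thus cannot be told apart from these counts.

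Among the receptors, no subunit was called different. Ifnar1, the subunit that binds type I interferon with lower affinity and pairs with Tyk2, had 6.90, 7.99, 6.79 and 7.81 in LEC of mice 1 to 4 and 8.48, 9.04, 8.13 and 8.61 in BEC. The 4 LEC arrays all lay below the 4 BEC arrays, but the difference of -1.19 ± 0.52 (SE) had an adjusted p of 0.312 in limma. A second Ifnar1 probe set, with 10.79 in LEC of mouse 1 and 4.26 to 6.59 in the other LEC arrays, had a difference of 0.45 and overlapped BEC (5.88 to 7.03). Ifnar2, which binds with high affinity, averaged 10.27 ± 0.37 in LEC and 10.22 ± 0.28 in BEC (SD, n = 4 each), and the 95% interval of its difference of 0.05 was -0.68 to 0.79. Its other probe sets had differences of -1.41 and 0.19, so the probe sets of Ifnar2 did not share a direction.

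The interferon gamma receptor showed the same disagreement. Ifngr1, the ligand-binding chain, averaged 8.50 ± 0.77 in LEC and 9.54 ± 0.65 in BEC (SD, n = 4 each), lower in LEC in all 4 mice, with a difference of -1.04 and a 95% interval of -2.15 to 0.07. Ifngr2, the signalling chain, had a difference of 0.91 (95% interval -0.74 to 2.55) on its brighter probe set and -1.28 on the other, neither called. The 4 receptor genes had a median difference of -0.50.

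Of the 7 factors, Irf1 alone was called. Irf1, an early target of interferon gamma that in turn activates antigen-presentation and antiviral genes, had 8.87, 7.74, 7.16 and 6.66 in LEC of mice 1 to 4 and 9.89, 10.99, 9.93 and 10.30 in BEC. Every LEC array was below every BEC array, LEC of mouse 1 the nearest. Irf1 was 6.36-fold lower in LEC, a difference of -2.67 ± 0.53 (SE), with an adjusted p of 0.0108 in limma. The call was lost without BEC of mouse 2 (adjusted p = 0.056), in the 3 female pairs alone (0.092) and without the intensity trend in eBayes (0.0506). Its promoter is the one printed above with a GAS word.

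Irf7, the factor that amplifies type I interferon production and is itself induced by it, had 4.83, 5.23, 1.32 and 4.45 in LEC and 6.97, 6.61, 6.38 and 5.81 in BEC. The groups did not overlap, but only 2 of 4 LEC arrays were above background and LEC of mouse 3 was far below the others. Its difference of -2.48 ± 0.90 (SE) had an adjusted p of 0.191 in limma.

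The rest of the factors had differences between -0.54 and 1.08, none called. Stat2 and Irf9, parts of the complex that binds the ISRE, had differences of -0.54 (95% interval -2.05 to 0.98) and -0.01 (95% interval -1.66 to 1.63). Irf3, which starts interferon production after virus sensing, had -0.25 on its brightest probe set, with LEC of mouse 2 at 8.04 and the other LEC arrays at 6.55 to 6.78. Irf2, known as an antagonist of Irf1, had 0.29 with a 95% interval of -2.54 to 3.13, the widest among the factors, since BEC of mouse 1 read 1.38 and the other BEC arrays 6.94 to 8.70. Irf8, a factor best known from myeloid cells, had a difference of 1.08 with an adjusted p of 0.596. Of the 7 factors 2 had an unadjusted p under 0.05, Irf1 and Irf7, both lower in LEC.

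**Figure D2:**
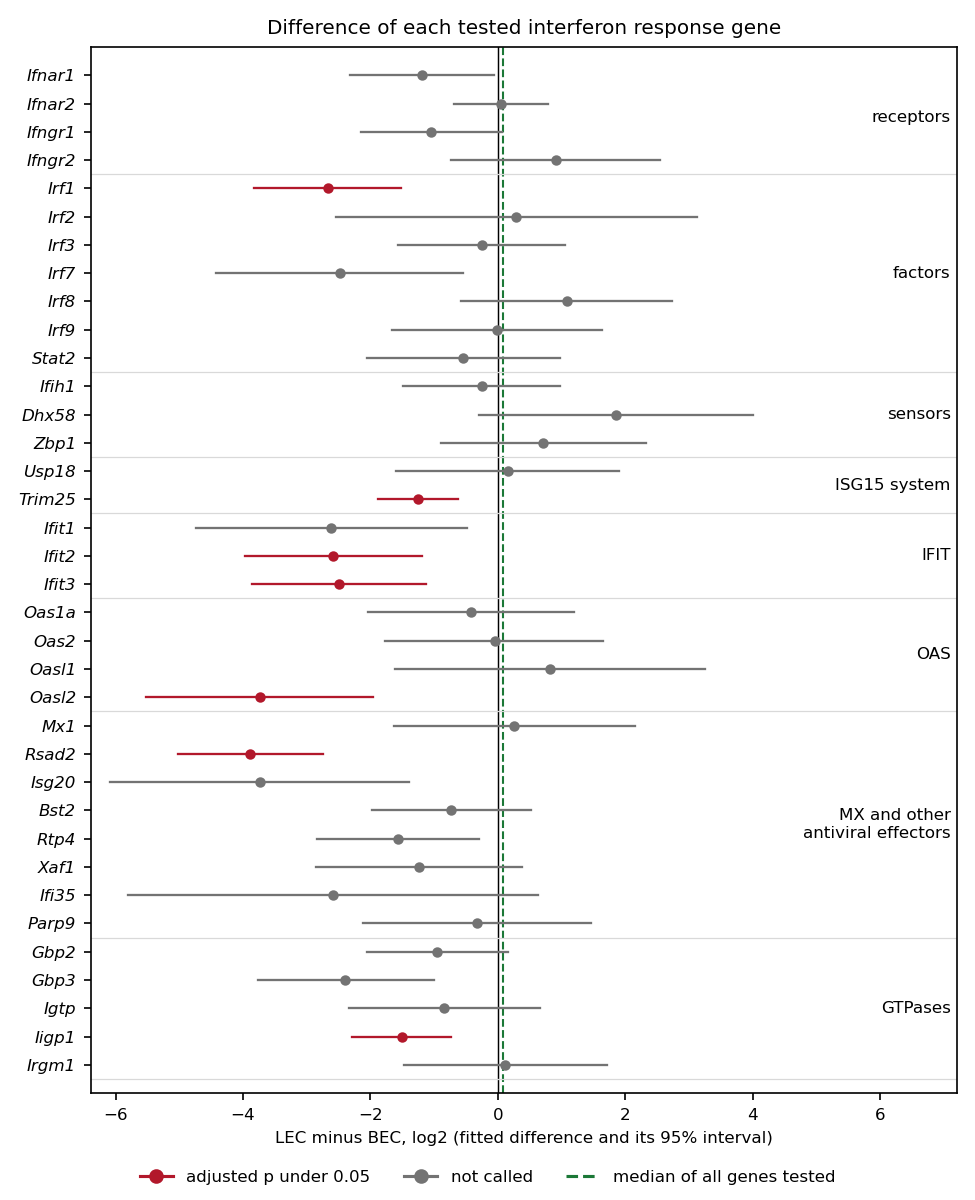
Fitted difference LEC minus BEC in log2 units (points) with its 95% interval (bars) for the 36 tested genes, grouped by role, red where the adjusted p was under 0.05 and grey otherwise. The 7 red genes all lie left of 0, and the dashed line marks the median of all 13259 genes at 0.08.

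The plot of fitted differences shows how the roles fell. Receptors and factors together had a median difference of -0.25, with 1 of 11 called lower, and the 25 tested induced genes one of -0.95, with 6 called lower. By mouse the median over the induced genes was -0.71, -1.05, -0.90 and -0.88 in mice 1 to 4, and over the receptors and factors it was -0.84, -1.01, -0.17 and -0.80. In mouse 1 the receptors and factors were thus the lower of the groups, and in mice 2 to 4 the induced genes were. Over 18 alternative settings the median of the induced genes ran from -1.33 to -0.65, that of the receptors and factors from -0.64 to 0 and that of all genes from -0.31 to 0.20, in this order within each setting. These medians describe the lists, and the difference between them was not tested.

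The IFIT genes encode proteins that bind viral RNA and block its translation. All 3 had differences between -2.61 and -2.49, and 2 were called. Ifit2 had 7.34, 7.37, 7.25 and 4.77 in LEC of mice 1 to 4 and 9.38, 9.41, 8.74 and 9.52 in BEC. It was lower in every LEC array, and LEC of mouse 4 lay apart below the other LEC arrays. The difference was -2.58 ± 0.64 (SE), 5.97-fold lower in LEC, with an adjusted p of 0.0388 in limma. With the replicate block the adjusted p was 0.0647. It also lost the call without LEC of mouse 2 (0.05) or mouse 4 (0.0593, with a difference of -1.94) and without BEC of mouse 1 (0.0982), 2 (0.116), 3 (0.0639) or 4 (0.118), and likewise without the intensity trend (0.0932) and in the female pairs (0.168).

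Ifit3 had 8.11, 6.66, 5.26 and 7.56 in LEC of mice 1 to 4 and 8.79, 9.88, 9.57 and 9.34 in BEC. Here too the groups did not overlap, with LEC of mouse 1 closest to BEC. Ifit3 was 5.63-fold lower in LEC, with a difference of -2.49 ± 0.63 (SE) and an adjusted p of 0.0427 in limma. The replicate block gave 0.0794. Without LEC of mouse 2, 3 or 4 it was 0.102, 0.0827 and 0.056, and without BEC of mouse 1, 2, 3 or 4 it was 0.0645, 0.141, 0.114 and 0.108. Quantile normalization gave 0.0581, the fit without the intensity trend 0.107 and the female pairs 0.134. A near-identical copy of Ifit3 lies in the mouse genome, and its transcripts could share the probes.

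Ifit1 had 3.59, 9.45, 6.76 and 6.31 in LEC of mice 1 to 4 and 8.10, 9.93, 8.62 and 9.92 in BEC. LEC was below BEC in each mouse, but LEC of mouse 2 reached into the BEC range and LEC of mouse 1 was below background. Its difference of -2.61 ± 0.98 (SE) was as large as those of Ifit2 and Ifit3 and had an adjusted p of 0.211 in limma, or 0.0378 without LEC of mouse 2. Ifit1 and Ifit3 are the genes whose promoters, printed above, each hold 2 ISRE words.

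The oligoadenylate synthetases make the messenger that activates the RNA-cutting enzyme RNase L, and 1 of 4 tested was called. Oasl2, a like gene of the same family, had 2.77, 6.13, 4.15 and 3.66 in LEC of mice 1 to 4 and 9.15, 7.19, 8.16 and 7.17 in BEC. All LEC arrays were below all BEC arrays, and 2 of 4 LEC arrays were above background. With the dim arrays set at their background, the mean of Oasl2 was at least 8.71-fold lower in LEC. Folds written as at least are such bounds on group means and hold no sampling error. The fitted difference was -3.74 ± 0.83 (SE, 95% interval -5.52 to -1.96) with an adjusted p of 0.0197 in limma. The call was lost with the replicate block (0.0527), without LEC of mouse 4 (0.0548), without BEC of mouse 1 (0.0728) or mouse 3 (0.059), and in the female pairs alone (0.0942). Oas1a, which has near-identical copies that may share its probes, had a difference of -0.42 (95% interval -2.04 to 1.19), Oas2 one of -0.05 (-1.77 to 1.66) and Oasl1 one of 0.82 (-1.61 to 3.25). Oasl1, which restrains Irf7 translation in mouse, read -0.14 in BEC of mouse 1 and 4.08 to 4.95 in the other BEC arrays. Oas3 was above background on 1 LEC array, of mouse 1 at 4.94, and on 0 BEC arrays, and it did not pass the filter.

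Rsad2 was the gene with the lowest p among all the interferon response genes. It encodes viperin, an enzyme that makes a chain-terminating nucleotide and stops viral RNA synthesis. Its signal was 9.64, 7.11, 8.18 and 6.98 in LEC of mice 1 to 4 and 12.01, 11.88, 11.83 and 11.75 in BEC. The LEC arrays spread more (SD 1.23) than the BEC arrays (SD 0.11), and the groups did not overlap. Rsad2 was 14.8-fold lower in LEC, a difference of -3.89 ± 0.53 (SE) with an adjusted p of 0.000656 in limma, and it was called in all 18 alternative settings (adjusted p from 1.88e-05 to 0.0129). Its other probe sets had differences of -3.90 and -6.17, with adjusted p of 0.0103 and 0.00173 in limma over all probe sets. Their means were at least 12.8-fold and 19.7-fold lower in LEC. Its promoter, the first printed above, holds a single ISRE word.

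**Figure D3:**
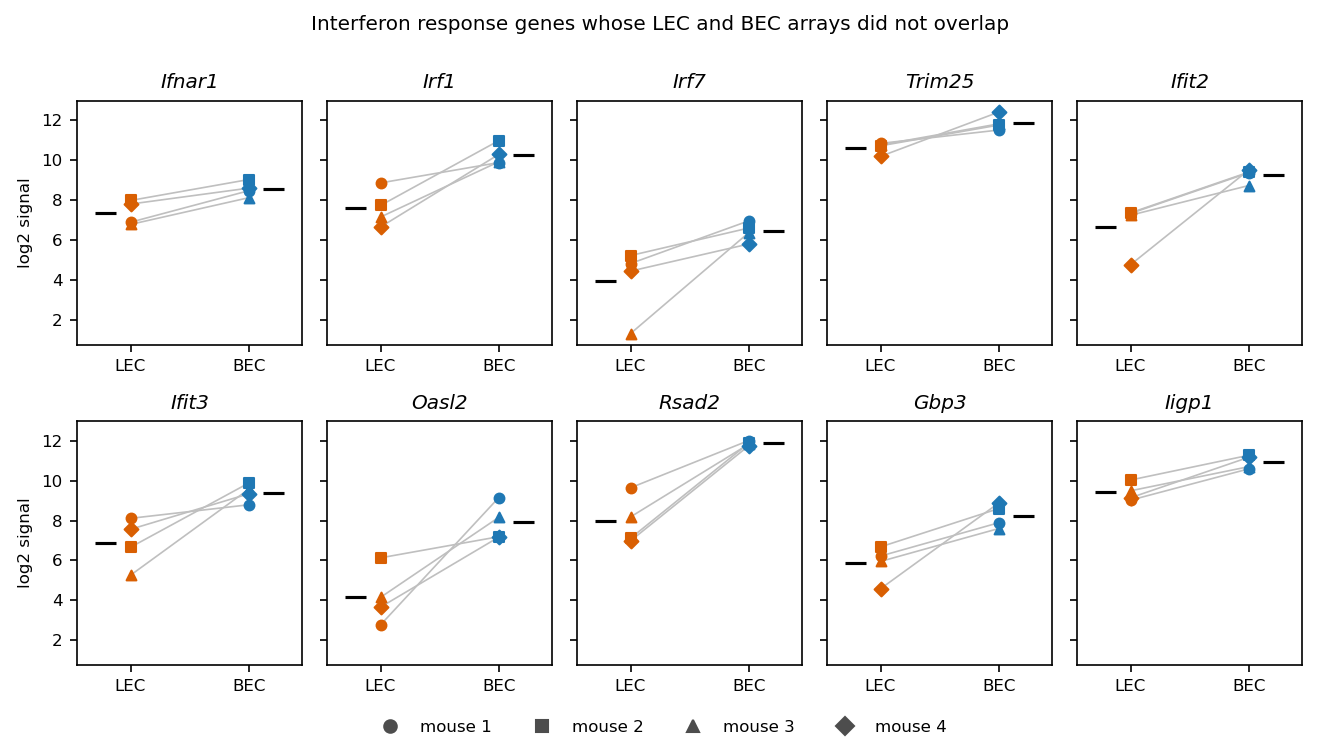
Log2 signal of the 10 tested genes whose 4 LEC arrays (left in each panel) and 4 BEC arrays (right) did not overlap, one symbol per mouse joined by a line, with horizontal bars for the group means. In each panel all 4 lines run upward to BEC, and the means were 7.98 in LEC and 11.87 in BEC for Rsad2, and 10.64 in LEC and 11.89 in BEC for Trim25.

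Genes with no overlap between the cell types are shown array by array in the panels of values. There were 10 such genes, all lower in LEC, 3 of 11 receptors and factors and 7 of 25 induced genes. Over all genes tested, 5.19% did not overlap and were lower in LEC, and 5.19% did not overlap and were higher. Besides the 7 called genes they were Ifnar1, Irf7 and Gbp3. Without regard to overlap, 15 of the 36 genes were lower in LEC in all 4 mice and 2, Dhx58 and Zbp1, were higher in all 4. Of all genes tested, 11.1% were lower and 14.3% higher in LEC in all 4 mice.

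None of the other antiviral effectors was called. Isg20, an exonuclease that degrades viral RNA, had 2.31, 2.15, 5.32 and 0.09 in LEC of mice 1 to 4 and 7.71, 6.30, 5.65 and 5.17 in BEC. It was above background on 1 LEC array, of mouse 3, and on all 4 BEC arrays, and lower in LEC in each mouse. The difference of -3.74 ± 1.09 (SE) had an adjusted p of 0.0819 in limma, and 0.0195 without LEC of mouse 3. With values raised to background the difference was -1.58, or 2.98-fold lower in LEC, with an adjusted p of 0.284 in limma. Rtp4, known to restrain flaviviruses, had a difference of -1.56 (95% interval -2.83 to -0.30, adjusted p = 0.208 in limma). On its other probe set it was -0.22 (0.943 over all probe sets), with overlapping groups. Xaf1, which promotes cell death, had -1.24 (-2.86 to 0.38), and Bst2, or tetherin, which holds budding virus at the cell surface, had -0.73 (-1.98 to 0.52).

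Ifi35, a partner of Nmi, had 2.24, 10.30, 10.59 and 11.39 in LEC and 10.08, 11.47, 11.92 and 11.41 in BEC. LEC of mouse 1 was below background there and the other LEC arrays reached into the BEC range, and the difference of -2.59 had a 95% interval of -5.81 to 0.63. Without LEC of mouse 1 it was -0.46 (adjusted p = 0.744 in limma) on this probe set, the brightest of Ifi35. Another probe set of Ifi35 had -3.14 (adjusted p = 0.0866 in limma over all probe sets) and was lower in LEC in all 4 mice. A further one had -0.84 (0.735) and was lower in LEC in 3 of 4 mice. On both, LEC of mouse 1 was below background too, and their differences without that array are not given here. Parp9, an ADP-ribosyltransferase that works with Dtx3l, had -0.32 (-2.11 to 1.47). The GTPase Mx1, of which C57BL/6 mice are known to carry a defective allele, was above background on 1 LEC and 1 BEC array and had a difference of 0.26 (-1.63 to 2.15). Mx2, also defective in laboratory strains, was above background on 0 LEC arrays and 1 BEC array, that of mouse 3 at 3.65, and did not pass the filter.

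The interferon-inducible GTPases attack the vacuoles in which microbes live. Iigp1 was the 1 of 5 called. It had 9.02, 10.03, 9.49 and 9.14 in LEC of mice 1 to 4 and 10.59, 11.27, 10.70 and 11.17 in BEC, with no overlap. Iigp1 was 2.86-fold lower in LEC, a difference of -1.51 ± 0.36 (SE) with an adjusted p of 0.0304 in limma. Without LEC of mouse 1, 3 or 4 the adjusted p was 0.0504, 0.0551 and 0.0823, and without BEC of mouse 2, 3 or 4 it was 0.12, 0.0608 and 0.103. With the mean of both its probe sets in place of the brighter one it was 0.0803, without the intensity trend 0.192, in the female pairs 0.215 and with equal hybridisation controls 0.112.

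Gbp3, a guanylate-binding protein, had 6.22, 6.68, 5.95 and 4.58 in LEC of mice 1 to 4 and 7.89, 8.60, 7.60 and 8.88 in BEC. The groups did not overlap. Its difference of -2.39 ± 0.64 (SE) had an adjusted p of 0.0569 in limma and passed in 4 of 18 alternative settings. Gbp2 had a difference of -0.95 (95% interval -2.06 to 0.16), lower in LEC in all 4 mice, and Igtp, which guards the cell's own membranes, one of -0.84 (-2.34 to 0.66). Irgm1, a regulator of the other GTPases, had a difference of 0.12 (-1.47 to 1.71), with LEC of mouse 1 at 7.77 and the other LEC arrays at 5.31 to 5.54. It is shown among the promoters as a gene that holds the ISRE word with no called difference.

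Sensors of viral RNA and DNA were the 1 role with a median above 0, at 0.71 over 3 genes, none called. Dhx58, or LGP2, a helicase that tunes RNA sensing, had 5.21, 5.10, 2.90 and 4.87 in LEC of mice 1 to 4 and 1.16, 4.22, 1.85 and 3.44 in BEC. LEC was higher in each mouse, with 3 LEC and 2 BEC arrays above background. The difference of 1.85 had a 95% interval of -0.30 to 4.01 and an adjusted p of 0.44 in limma. Its other probe sets, which did not pass the filter, had differences of 0.04 and -0.13, each higher in LEC in 2 of 4 mice. Zbp1, a sensor of Z-form nucleic acids that starts necroptosis, was higher in LEC in each mouse too, with a difference of 0.71 (-0.89 to 2.32), and of 2.02 on its other probe set, neither called. Ifih1, or MDA5, the sensor of long double-stranded RNA, had -0.25 (-1.48 to 0.97), with BEC of mouse 3 at 7.42 and the other BEC arrays at 7.88 to 7.94.

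Within the ISG15 system, in which a ubiquitin-like protein is attached to others, Trim25 was lower in LEC. Trim25, a ligase for ubiquitin and ISG15 that activates the RNA sensor RIG-I, had 10.85, 10.73, 10.77 and 10.20 in LEC of mice 1 to 4 and 11.52, 11.77, 11.83 and 12.42 in BEC. The arrays were tight within each cell type and did not overlap. It was 2.37-fold lower in LEC, a difference of -1.25 ± 0.29 (SE) with an adjusted p of 0.0273 in limma. That call was lost with the replicate block (0.05), without LEC of mouse 2 (0.0579) or mouse 4 (0.0817) and without BEC of mouse 2 (0.0711), 3 (0.0683) or 4 (0.103). It was also lost without the intensity trend (0.282), in the female pairs (0.228) and with equal hybridisation controls (0.0801). Usp18, which removes ISG15 and blocks signalling at Ifnar2, had a difference of 0.16 (95% interval -1.59 to 1.91).

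**Figure D4:**
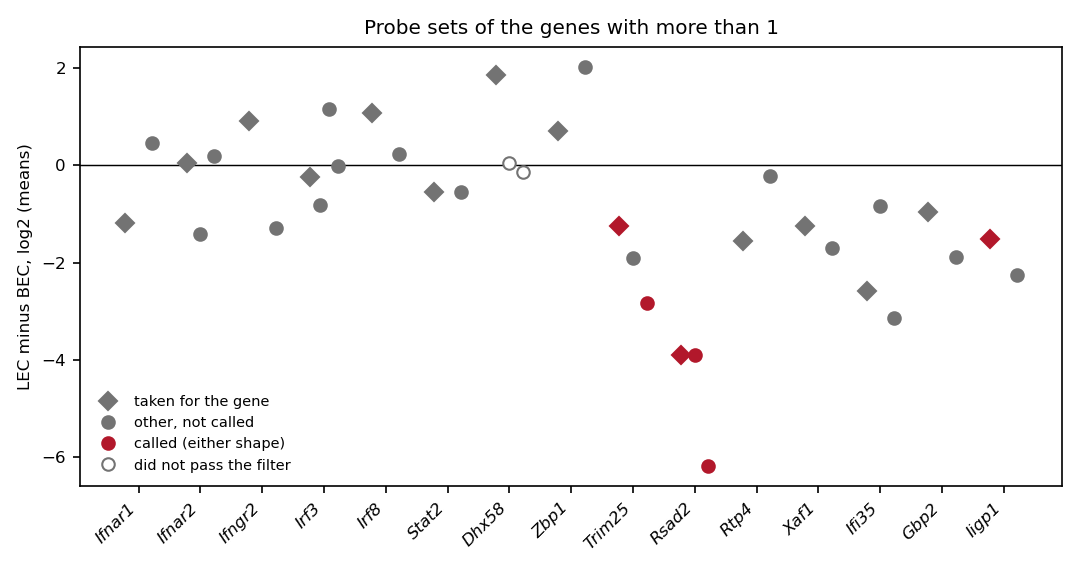
Difference LEC minus BEC in log2 units of each probe set of the 15 genes with more than 1, with a diamond for the brightest, used in the gene fit, and circles for the others, red where called and open where the filter was not passed. The 3 probe sets of Rsad2 and the 3 of Trim25 all lie below 0, while those of Ifnar1, Ifnar2, Ifngr2, Irf3 and Dhx58 lie on both sides of it.

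The plot of single probe sets sets the genes apart by how far their probe sets shared a direction. Of the 60 probe sets 56 were tested, 10 were called lower and 0 higher in LEC, against 2.09% of all probe sets called lower, and 41 had a difference below 0. The 15 that did not overlap between the cell types were all lower in LEC, and of all probe sets 4.93% did not overlap and were lower. All 3 probe sets of Rsad2 were called. In Trim25 the brightest probe set can match several transcripts, and the others had differences of -1.90 (adjusted p = 0.105) and -2.82 (0.0184), all 3 without overlap. The second probe set of Iigp1 had -2.25 (0.251) and that of Gbp2 had -1.88, on the same side as the brighter ones.

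**Figure D5:**
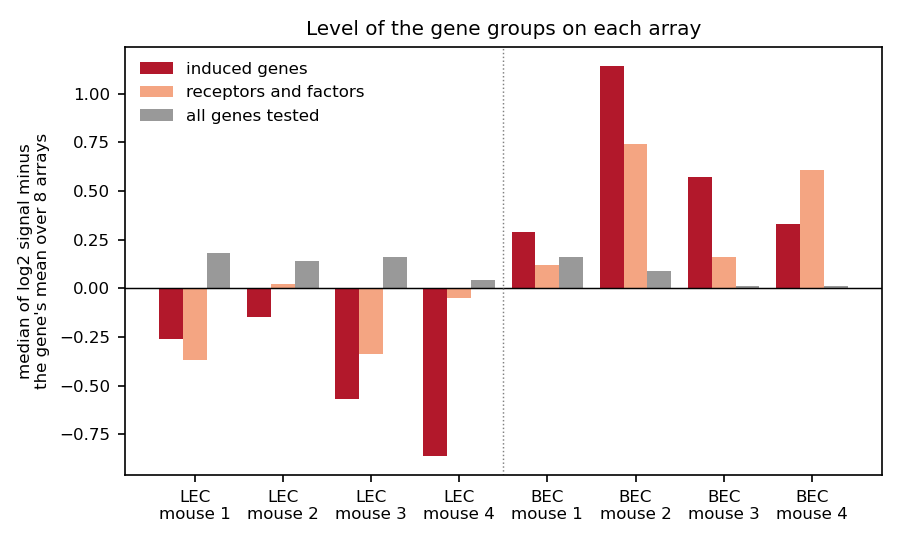
Median over the induced genes (red), the receptors and factors (orange) and all genes tested (grey) of the log2 signal minus each gene's mean over the 8 arrays, for LEC (left) and BEC (right) of mice 1 to 4. The red bars lie between -0.86 and -0.15 in LEC and between 0.29 and 1.14 in BEC, and the grey ones between 0.01 and 0.18.

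The median level of the induced genes separated the cell types on every array, as the bar plot of array medians shows. It was -0.26, -0.15, -0.57 and -0.86 in LEC of mice 1 to 4 and 0.29, 1.14, 0.57 and 0.33 in BEC. The receptors and factors had -0.37, 0.02, -0.34 and -0.05 in LEC and 0.12, 0.74, 0.16 and 0.61 in BEC. BEC of mouse 2 was the highest array for both groups. LEC of mouse 1, the array that stood apart, was not the lowest for the induced genes, that being LEC of mouse 4, the male mouse. The fibroblast markers summed to 8.86, 13.24, 9.90 and 12.45 in LEC of mice 1 to 4 and to 8.05, 8.00, 8.69 and 8.03 in BEC. The epithelial markers summed to 8.87, 10.92, 13.82 and 10.23 in LEC and to 9.62, 9.95, 14.75 and 13.08 in BEC. The part of sex and of these other cells in the array levels was not tested. The background of LEC of mouse 4 was 4.01 and 34 of its 38 measured interferon response genes were above it, against 29, 33 and 32 in LEC of mice 1 to 3 and 31, 35, 36 and 35 in BEC. Of all 13259 genes tested, 9593, 10364, 11347 and 10357 were above background in LEC of mice 1 to 4. In BEC these were 10011, 11701, 11157 and 11117. The array of mouse 1 was thus the lowest of its cell type in both counts.

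The rest of the pathway was taken from lists of ligands, signalling genes, nucleic acid sensors and further induced genes. Of 10 interferon genes on the array, 1 to 2 were above background in LEC and 1 to 3 in BEC, and Ifnb1, Ifna2, Ifna4, Ifna9 and Ifnab were above it on no array. Of 16 tested signalling genes, such as Jak1, Jak2 and Tyk2, 0 were called by limma (0 higher and 2 lower in LEC at an unadjusted p under 0.05), with a median difference of -0.09. Of 8 tested nucleic acid sensing genes, 0 were called (0 higher and 1 lower at an unadjusted p under 0.05), with a median of -0.85.

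Among 41 tested further induced genes 3 were called lower and 1 higher in LEC, with a median difference of -0.75. Whether these calls held in the alternative settings is not reported here. Of all genes, 2.31% were called lower. At an unadjusted p under 0.05 in limma, 4 of the 41 were higher and 11 lower, against 6.98% and 7.42% of all genes. The difference was below 0 in 61% of the 41, against 46.8% of all genes. The single gene called higher is a share near the 1.76% of all genes. Ifi47, a GTPase of the same family as Iigp1, had 2.02, 6.58, 5.19 and 3.54 in LEC of mice 1 to 4 and 8.39, 8.74, 8.21 and 8.03 in BEC. Its mean was at least 9.05-fold lower in LEC (fitted difference -4.01 ± 0.89 SE, adjusted p = 0.0196 in limma), and the groups did not overlap. Trim30a, a Trim protein that restrains Toll-like receptor signalling in mouse, had 5.34, 6.49, 5.76 and 5.29 in LEC and 7.54, 8.24, 8.41 and 9.00 in BEC, 5.96-fold lower (-2.58 ± 0.60 SE, adjusted p = 0.0271 in limma). Helz2, a helicase and nuclear coactivator, had 0.21, 5.70, 4.76 and -0.47 in LEC and 7.82, 8.23, 6.75 and 8.40 in BEC. Its mean was at least 7.80-fold lower in LEC (-5.25 ± 1.26 SE, adjusted p = 0.0313 in limma).

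Ifi27l2a was that gene. This small induced protein of the Ifi27 family had 8.99, 8.28, 8.69 and 9.11 in LEC of mice 1 to 4 and 4.41, 4.87, 7.09 and 6.24 in BEC. Its LEC arrays all lay above its BEC arrays. The mean level was at least 8.50-fold higher in LEC, and the fitted difference was 3.11 ± 0.68 (SE) with an adjusted p of 0.0175 in limma.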

How the data were processed

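RNA of LEC and BEC sorted from 4 mice was hybridised to 8 one-colour arrays, and the authors deposited log2 signals made with MAS5 per the submitters' processing notes, with version, scaling target and any further step not given in the sources used here. Scanner files were not used here. Of 45101 probe sets, 64 were controls, 34945 had 1 gene, 932 several and 9160 none in the platform annotation of 2016, with symbols updated through the gene number for 34741 and kept as annotated for 204. A gene was represented by its probe set with the highest mean over all arrays, and 13259 genes had one above the 40th percentile of the array on at least 4 arrays. On each array the background was taken from 27 control probe sets for bacterial transcripts, at their 95th percentile. It also set the bounds of folds written as at least, which compare group means and hold no sampling error.

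The difference LEC minus BEC came from limma 3.58.1 under R 4.3.3 (functions lmFit and eBayes, intensity trend on, two-sided, 6 residual degrees of freedom), with Benjamini-Hochberg adjustment over all genes and, separately, all 23982 probe sets. The fit has no block. The submitters state that LEC and BEC are matched by animal, and deviations of same-mouse arrays correlated at 0.142, 0.0776, 0.181 and 0.051. The mice are the replicates, and the number of arrays limits the precision. Unmapped sample columns numbered 0. The fit was tested on simulated data. All 40 genes are named. Called genes and genes whose groups do not overlap are given per array, and others by role, and called genes of the further lists are named. The members and lists were chosen with earlier results of these data known. Alternatives were the replicate block, filters, scalings, background, variance model, probe set choice, arrays left out, the female pairs, and, chosen after seeing the data, equal hybridisation controls.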

Additional observations from a re-analysis of the deposited data

Results flagged for a closer look

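In 7 of 72 groups of 4 arrays (36 genes in each cell type) the lowest or highest array lay far from the others by Dixon's test at the 95% level, which chance would do in about 1 of 20 groups. In LEC of mouse 4, Ifit2 read 4.77, and the other LEC arrays read 7.25 to 7.37. Irgm1 read 7.77 in LEC of mouse 1, against 5.31 to 5.54 in the others. Dhx58 read 2.90 in LEC of mouse 3, against 4.87 to 5.21. For Irf3, LEC of mouse 2 read 8.04, against 6.55 to 6.78. Ifi35 read 2.24 on its brightest probe set in LEC of mouse 1, below the background, against 10.30 to 11.39. Without that array the difference on this probe set was -0.46 in place of -2.59. In BEC, Oasl1 read -0.14 on the array of mouse 1, against 4.08 to 4.95 in the others, and Ifih1 read 7.42 on that of mouse 3, against 7.88 to 7.94. Of these genes Ifit2 was called, and without LEC of mouse 4 its difference was -1.94 (adjusted p = 0.0593 in limma).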

How the results depend on the processing

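No interferon response gene was called higher in LEC under any of the 18 alternatives, and Rsad2 was called lower under all. The count of genes called lower was 7 as reported, 3 with the mouse as a replicate block, 2 without the intensity trend, 1 in the female pairs alone (fewer samples) and 2 to 6 with an array left out. As a share this was 19.4%, 8.33%, 5.56%, 2.78% and 5.56% to 16.7% in turn. Of all genes, 2.31%, 2.25%, 1.61%, 1.15% and 1.36% to 2.48% were called lower in the same settings. All genes called numbered 306 lower and 234 higher, against 298 and 236 with the replicate block, 152 and 116 in the female pairs, 180 to 329 lower with an array left out, and 123 higher with equal hybridisation controls. Equal array medians gave 336 lower and 162 higher. The median of the induced genes, -0.95, was -1.25 with the stricter filter, -1.22 with equal array medians, -1.33 with equal hybridisation controls and -1.32 to -0.65 with an array left out, and that of receptors and factors, -0.25, was -0.64 with equal hybridisation controls. These scalings moved the median of all genes from 0.08 to -0.20 (equal array medians) and -0.31 (hybridisation controls).

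Of the 36 genes, 11 changed sign under some alternative, none of them called. With equal array medians Usp18 was -0.12, Irgm1 -0.16, Ifnar2 -0.22 and Mx1 -0.02, and with equal hybridisation controls Usp18 was -0.23, Irf2 -0.09, Irgm1 -0.27, Ifnar2 -0.34 and Mx1 -0.13. Quantile normalization gave Mx1 -0.07. Raising values to background gave Irf2 -0.49 and Oasl1 -0.20. The mean of all probe sets gave Ifngr2 -0.19, Irf3 0.02 and Ifnar2 -0.39. The female pairs gave Usp18 -0.05, Oas2 0.21, Irf3 0.01 and Mx1 -0.18. With an array left out, Ifnar2 ran from -0.09 to 0.20, Irf2 from -1.33 to 1.11, Irf9 from -0.47 to 0.45, Irgm1 from -0.46 to 0.36, Oas2 from -0.45 to 0.33, Oasl1 from -0.35 to 1.35, Parp9 from -1.05 to 0.35 and Usp18 from -0.14 to 0.66. The cause of these changes was not tested. Signals near the background, as in Mx1, Mx2, Oas3 and Dhx58, limit what can be said of those genes.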

Other observations

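Some further induced genes and 1 signalling gene that were not called, chosen after their values were seen, had differences on both sides of 0. The Ifitm proteins, which block virus entry at membranes, had differences LEC minus BEC of 1.59 (Ifitm1), -0.10 (Ifitm2) and 0.68 ± 0.20 SE (Ifitm3, adjusted p = 0.0953 in limma). Samd9l had -1.83 ± 0.57 (SE, adjusted p = 0.108 in limma). Socs3, a feedback inhibitor of Jak-Stat signalling, had 5.59, 5.89, 5.78 and 6.97 in LEC of mice 1 to 4 and 7.88, 7.57, 7.99 and 7.99 in BEC. Its groups did not overlap, and its difference of -1.80 ± 0.58 (SE) had an adjusted p of 0.125 in limma.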
